A study of Mus musculus with 26 samples.

Results

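The genes that move calcium into and out of the sarcoplasmic reticulum were followed in mouse heart under pressure load. The set holds 7 genes, Atp2a2, Pln, Ryr2, Casq1, Casq2, S100a1 and Slc8a1, and its probe sets are those that the probe-to-gene table of the array assigns to 1 of these genes alone. Of 12488 probe sets on the array, 10 met this rule. They cover 6 of the 7 genes, since no probe set in the table carried Pln as its one gene, so Pln has no value here. The 10 were 3 for S100a1, 3 for Slc8a1 and 1 each for Atp2a2, Ryr2, Casq1 and Casq2. A filter on dim probe sets (intensity above 880.1, the pooled median, in at least 4 arrays) left 7 of the 10 and 7297 of all 12488.

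Total RNA of mouse hearts was put on 26 arrays after transverse aortic constriction (TAC), in which a narrowing of the aorta raises the pressure that the heart must overcome, or after a sham operation without the narrowing. At 48 h there were 5 TAC and 4 sham arrays, at 10 d 4 TAC and 4 sham arrays, and at 3 wk 5 TAC and 4 sham arrays. The heart chamber, strain, sex and age, and whether each array came from its own animal, are not given in the sources used here, so the spread behind each p-value is that of the arrays and may in part be technical. Each value is an intensity, the brightness of a probe set on a linear scale. Intensities of different probe sets are not read as relative amounts of transcript, though the marker sums below add them.

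In heart muscle, calcium that enters through the L-type channel opens the ryanodine receptor Ryr2, through which the sarcoplasmic reticulum releases the calcium that starts contraction. For relaxation the pump SERCA2, the product of Atp2a2, returns calcium to the store, held back by phospholamban (Pln), while the sodium-calcium exchanger Slc8a1 carries calcium out of the cell. Inside the store calsequestrin buffers calcium and acts on the release channel. Casq2 is its cardiac form and Casq1 the form of fast skeletal muscle. S100a1 is a small calcium sensor that binds both the pump and the release channel.

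Arrays of one group correlated across probe sets at r = 0.918 to 0.955, and arrays of different groups at 0.897 to 0.960, with probe sets not independent of each other. Array medians lay between 740.8 and 1031, with 740.8 to 815.6 at 48 h, 861.2 to 922.8 at 10 d and 904.8 to 1031 at 3 wk. The 7 markers of ventricular muscle were all measured, and their summed intensity was 573495 to 1315900 in TAC and 624056 to 1120150 in sham arrays. The 4 atrial markers summed to 10167 to 325841 in TAC and 7679.8 to 229887 in sham arrays. In sham arrays the sum was 7679.8 to 21325.9 at 48 h, 10898.7 to 127167 at 10 d and 80666.7 to 229887 at 3 wk. In TAC arrays the ranges of the durations overlapped. RNA integrity, read as the log2 ratio between the 3′ and 5′ control probe sets of Gapdh and of Actb, differed between TAC and sham by less than exact permutation tests could call (two-sided, raw p from 0.143 to 0.886, adjusted p from 0.858 to 0.886 over 6 tests). All 48 h arrays were scanned on 1 day. At 10 d TAC replicate 4 was scanned on another day than the other 7 arrays. At 3 wk TAC replicates 1, 2 and 3 and sham replicates 2 and 3 shared a day, TAC replicates 4 and 5 shared another, and sham replicates 1 and 4 carry none. Each known scan day thus belonged to a single duration.

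Casq1 was the gene of the set that was higher in TAC hearts, at 10 d and at 3 wk, and Ryr2 was lower in TAC hearts at 10 d. Of the 7 tested probe sets, 0 were called at 48 h, 2 at 10 d and 1 at 3 wk by limma, a linear model fitted over all 7297 probe sets, at a Benjamini-Hochberg adjusted p under 0.05. Over all tested probe sets the called share was 0.0548% at 48 h, 4.87% at 10 d and 4.73% at 3 wk. At an unadjusted p under 0.05 the members counted were 1 of 6 genes at 48 h, 4 at 10 d and 2 at 3 wk, where 6.17%, 21% and 19.6% of all tested probe sets reached it. The median log2 change of the 6 measured genes, TAC minus sham, was -0.01 at 48 h, -0.06 at 10 d and 0.07 at 3 wk, against -0.01, -0.02 and -0.01 over all tested probe sets. The TAC and sham ranges were separate in 1 of the 7 probe sets at 48 h, 4 at 10 d and 1 at 3 wk, where 2.29%, 15.7% and 8.48% of all tested probe sets were without overlap. In bulk RNA, fewer cells of a type and less of a transcript per cell cannot be told apart.

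Promoters of the release channel and of both calsequestrins are shown because these 3 genes had the largest TAC changes among the genes that each rest on 1 probe set; the calsequestrins also read in opposite directions at 10 d. RefSeq, build GRCm38.p6, gave a promoter window of 300 bases, from 250 before the start of transcription to 50 after it, for 6 of the 7 genes, Atp2a2 being the one without. Capitals mark the E-box CANNTG, a site of helix-loop-helix factors that reads the same on both strands, and in Casq2 also the site of MEF2, a muscle transcription factor, searched on both strands.
Casq1, chr1:172219846-172220145, minus strand: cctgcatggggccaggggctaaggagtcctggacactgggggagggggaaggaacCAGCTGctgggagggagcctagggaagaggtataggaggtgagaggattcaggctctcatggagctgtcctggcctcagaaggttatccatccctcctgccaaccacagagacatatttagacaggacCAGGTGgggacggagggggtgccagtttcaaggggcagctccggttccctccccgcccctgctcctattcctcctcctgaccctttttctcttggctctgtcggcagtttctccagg
Casq2, chr3:102086165-102086464, plus strand: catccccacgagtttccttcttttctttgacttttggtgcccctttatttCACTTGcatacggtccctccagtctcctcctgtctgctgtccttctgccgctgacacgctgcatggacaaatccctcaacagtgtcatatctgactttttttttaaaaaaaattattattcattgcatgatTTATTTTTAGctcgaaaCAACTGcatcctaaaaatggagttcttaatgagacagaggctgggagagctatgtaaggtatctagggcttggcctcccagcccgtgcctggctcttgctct
Ryr2, chr13:12106896-12107195, minus strand: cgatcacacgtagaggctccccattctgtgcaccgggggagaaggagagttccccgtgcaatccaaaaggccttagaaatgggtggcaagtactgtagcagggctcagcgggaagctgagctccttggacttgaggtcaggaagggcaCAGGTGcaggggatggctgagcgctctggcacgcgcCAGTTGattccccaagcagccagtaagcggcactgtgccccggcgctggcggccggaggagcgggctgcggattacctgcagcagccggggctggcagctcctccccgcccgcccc
Each of these windows held 2 E-boxes, at -195 and -67 from the start in Casq1, at -200 and -52 in Casq2 and at -102 and -66 in Ryr2, and 72.3% of 32851 promoters of the same length held at least 1. The Casq2 window also held 1 MEF2 site, at -69, a site found in 3.19% of the promoters and in none of the other 5 windows of the set. G and C made up 65.3% of the Ryr2 window, 60.3% of that of Casq1 and 44.7% of that of Casq2. A match is a description of the letters and says nothing about binding in these hearts.

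The plot of each array's value by duration shows how the 6 measured genes differ in their pattern.

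**Figure D1:**
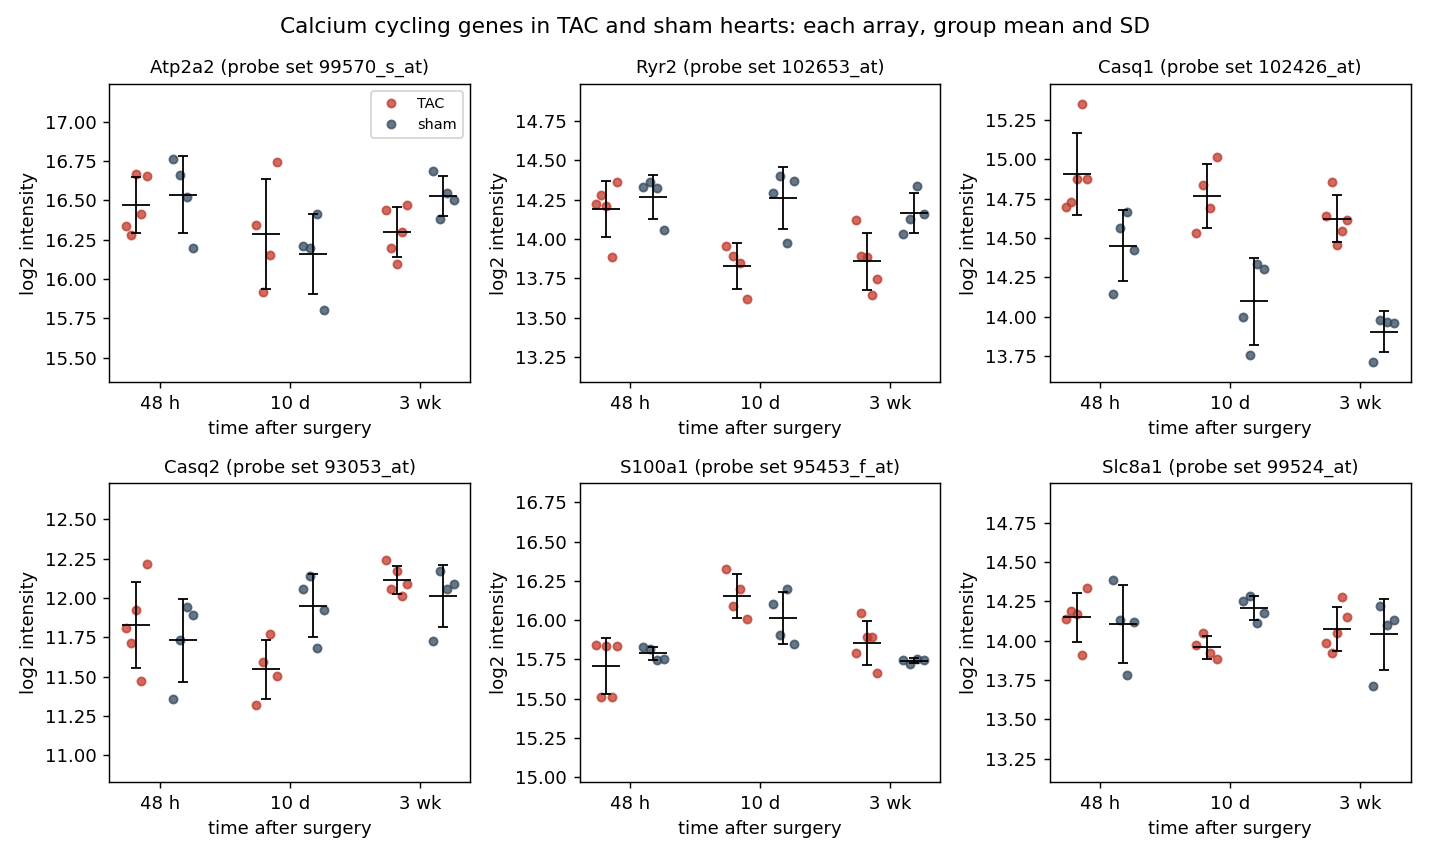
Log2 intensity of the representative probe set of each measured gene on each array, by time after surgery, with TAC (red) left of sham (dark blue); the bar is the group mean and the whisker 1 SD, and all panels span the same range. Casq1 lies higher in every TAC array than in every sham array of the same duration, Ryr2 lies lower in every TAC array at 10 d, and the groups of Atp2a2 and S100a1 overlap at every duration.

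Ryr2, the calcium release channel, was measured by 1 probe set, 102653_at. At 48 h its intensities were 19103, 19869, 18912, 15167 and 21067 in TAC arrays, against 20634, 21025, 20492 and 17044 in sham arrays. The groups overlapped, and the difference did not pass (log2 change -0.08, SE 0.11, adjusted p = 0.986). At 10 d the intensities were 15919, 15231, 14726 and 12594 in TAC arrays, against 20106, 21679.5, 16119.5 and 21139.6 in sham arrays. Each of the 4 TAC arrays lay below each of the 4 sham arrays. Ryr2 fell 1.348-fold (log2 change -0.43, SE 0.12, adjusted p = 0.0329 by limma), with mean log2 intensities of 13.83 ± 0.15 in TAC and 14.26 ± 0.19 in sham arrays (SD, n = 4 each). At 3 wk the intensities were 17835, 15180.1, 15159, 12809.8 and 13742 in TAC arrays, against 16730.3, 17888, 20709.6 and 18333 in sham arrays. TAC replicate 1 lay above the lowest sham array while the other 4 TAC arrays lay below all of them, and the difference did not pass (log2 change -0.31, SE 0.11, adjusted p = 0.11). The order of the 6 group means ran with TAC 10 d and TAC 3 wk lowest, and the one gap between neighbours larger than their SD, 0.31 on the log2 scale, lay between TAC 3 wk and sham 3 wk.

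The Ryr2 call at 10 d lay near the threshold. It was lost on the 7 arrays of the main scan day (-0.36, adjusted p = 0.0991 by limma) and in 6 of the 8 fits without 1 array, kept only without TAC replicate 1 or sham replicate 3, with log2 changes of -0.53 to -0.36 and adjusted p of 0.0131 to 0.115. At 10 d the summed intensity of the 8 fibroblast markers was 169600 to 231110 in TAC and 123083 to 138224 in sham arrays, with 5 of the 8 called higher. That of the 9 macrophage markers with a probe set was 55726 to 60698 in TAC and 38616 to 42280.4 in sham arrays, with 6 of 8 tested called higher. That of the 7 ventricular markers was 573495 to 1315900 in TAC and 624056 to 1042830 in sham arrays, with none called. That of the 8 endothelial markers was 57598 to 68214 in TAC and 47804 to 51138 in sham arrays, with 3 called higher. The part of these other cells in the Ryr2 result was not tested. At 3 wk the ventricular marker sums, given with Atp2a2, lay lower in every TAC array than in every sham array. Their part in the Ryr2 change at 3 wk was not tested.

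Casq1, skeletal calsequestrin, rested on 1 probe set, 102426_at, which was not checked for probes that also match Casq2 or other transcripts. Its mean log2 intensity over all arrays was 14.48, at percentile 95 of the tested probe sets. That of the Casq2 probe set was 11.87, at percentile 67.4. Whether the Casq1 probe set reads Casq1 alone was not tested. At 48 h its intensities were 26525, 27213, 30087, 41902 and 30121 in TAC arrays, against 18139.6, 24177, 26037 and 22014 in sham arrays. All 5 TAC arrays lay above all 4 sham arrays, but the difference did not pass (log2 change 0.46, SE 0.14, adjusted p = 0.315). At 10 d the intensities were 23698, 29247, 26488 and 33073 in TAC arrays, against 16335, 13819, 20658 and 20233 in sham arrays. The groups again did not overlap, and Casq1 rose 1.593-fold (log2 change 0.67, SE 0.15, adjusted p = 0.00696 by limma), with mean log2 intensities of 14.77 ± 0.20 in TAC and 14.10 ± 0.28 in sham arrays (SD, n = 4 each). At 3 wk the intensities were 25562, 29647, 22439, 23899 and 25112 in TAC arrays, against 13392, 16169.6, 16036 and 15967 in sham arrays. Casq1 rose 1.644-fold without overlap (log2 change 0.72, SE 0.14, adjusted p = 0.00301 by limma), with 14.62 ± 0.15 (SD, n = 5) in the TAC arrays and 13.91 ± 0.13 (SD, n = 4) in the sham arrays. The call at 10 d was kept under all 11 alternative settings and all 8 fits without 1 array. At 3 wk it was kept in all 9 fits without 1 array but not with scan day as a block or within the main scan day. Both settings take the effect from the same 3 TAC and 2 sham arrays (0.68, adjusted p = 0.118 by limma within the main scan day). At 3 wk the fibroblast markers summed to 171333 to 251573 in TAC and 129858 to 173844 in sham arrays, with 6 of 8 called higher, and the macrophage markers to 44043 to 59168 in TAC and 37428 to 40716 in sham arrays, with 4 of 8 called higher. Their part in the Casq1 result, and at 10 d that of the marker sums given with Ryr2, was not tested.

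The 3 TAC groups held the highest Casq1 means and the 3 sham groups the lowest, and the sham level itself differed between durations. It was 14.45 ± 0.23 at 48 h, 14.10 ± 0.28 at 10 d and 13.91 ± 0.13 at 3 wk (log2 intensity, SD, n = 4 each), which passed a limma F test over the sham groups (adjusted p = 0.0142). This is a test that 33.6% of all tested probe sets passed, and Casq1 was the only one of the 7 member probe sets to do so. The call was lost under quantile (adjusted p = 0.0696) and cyclic loess normalization (adjusted p = 0.0558) and without sham 48 h replicate 3 (adjusted p = 0.0625). A change between durations and a change between scan days cannot be told apart in these sham arrays. Sham arrays at 48 h and 3 wk also differed in their atrial marker sums and array medians, and the part of these was not tested. The TAC effect on Casq1 at 10 d and 3 wk was measured against a sham level that was lower than at 48 h. The Casq1 mean of the TAC groups was 14.91 ± 0.26 at 48 h (n = 5), 14.77 ± 0.20 at 10 d (n = 4) and 14.62 ± 0.15 at 3 wk (n = 5), with neighbours closer than their SD.

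Casq1 is a skeletal muscle gene, so the skeletal list was read beside it. Of its 13 genes 12 had a probe set and 8 were tested, and Acta1, skeletal actin, which heart muscle also makes, was the one called, at 10 d and 3 wk. Acta1 intensities were 117130, 72038, 101056 and 165935 in TAC arrays, against 56185, 43393, 53464 and 55609.5 in sham arrays at 10 d (log2 change 1.07, SE 0.18, adjusted p = 0.000547 by limma) and 118157, 90372, 107135, 106596 and 119379 in TAC arrays, against 48517, 53052, 46851 and 56892 in sham arrays at 3 wk (log2 change 1.07, SE 0.17, adjusted p = 0.000518). At both durations TAC and sham arrays of Acta1 did not overlap. At 48 h they did not overlap either, at 105964 to 180509 in TAC and 69158.9 to 94463.1 in sham arrays. That difference was not called (log2 change 0.77, SE 0.17, adjusted p = 0.127 by limma). The summed intensity of the 12 skeletal genes with a probe set was 83174 to 180154 in TAC and 53770.3 to 68365 in sham arrays at 10 d, and 103500 to 132722 in TAC and 62425 to 73149 in sham arrays at 3 wk. Without Acta1 the summed intensity of the other 11 genes was 11136 to 14219 in TAC and 10377 to 13065 in sham arrays at 10 d, and 12191 to 16420.1 in TAC and 15180.2 to 17736 in sham arrays at 3 wk. These ranges overlapped at both durations. By median over the arrays, the brightest probe sets of these 11 genes were 1 of Pvalb (5997) and 1 of Myh4 (2269). The next was 1 of Atp2a1 (962.8). The other Pvalb and Myh4 probe sets had medians of 136.3 and 93.7. A sum of intensities weighs bright probe sets most, so the overlap says little of the dimmer genes. These 11 genes had 17 probe sets, of which 8 were under the floor of 167.9 in 14 to 26 arrays, 7 in no array and the other two in 1 and 12 arrays. Among the dim ones, the fast myosin Myh2 was under it in 25 of 26 arrays (highest 173.9), the fast troponin Tnni2 in 24 (highest 224.1) and the fast myosin Myh1 in 15 (highest 381.5). Mybph, a myosin-binding protein with 1 probe set, read 218.4 to 1587 and was under the floor in no array. Where a gene had 2 probe sets they could disagree. Those of Myh4, another fast myosin, read 15.4 to 543.3 and 1276 to 3832, those of Tnnc2, fast troponin C, 19.4 to 177.2 and 200.1 to 2534, those of Atp2a1, the fast skeletal pump, 28.1 to 413.6 and 401.5 to 1630, those of Mylpf, a fast myosin light chain, read 8.3 to 146.6 and 293 to 1746, and those of Pvalb, a calcium buffer of fast muscle, 17 to 325.6 and 3711 to 12870. Both probe sets of Actn3, the actinin of fast fibres, reached well above the floor, with highest values of 1801 and 1435. Apart from Acta1, the tested skeletal genes were not called at any duration, and Myh1, Myh2 and Tnni2 were too dim to be tested. At an unadjusted p under 0.05 by limma there were 5 of the 8 skeletal genes at 48 h, 1 at 10 d and 2 at 3 wk. The share of all tested probe sets was 6.17%, 21% and 19.6%. Of the 5 at 48 h, Acta1, Tnnc2, Mybph and Pvalb were higher in TAC arrays and Mylpf was lower (log2 change -0.73). The median log2 change of the 8 was 0.17, 0.07 and -0.22.

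Over the 26 arrays the genes most like Casq1 in log2 intensity, among 5563 others, were Acta1 (r = 0.84, rho = 0.80), Lmna, a nuclear lamin (r = 0.82), and Crip1, a LIM domain protein (r = 0.82). These arrays share their groups and durations. With each array taken as its deviation from its group mean, the r with Acta1 was 0.26, with Lmna 0.28 and with Crip1 0.52.

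**Figure D2:**
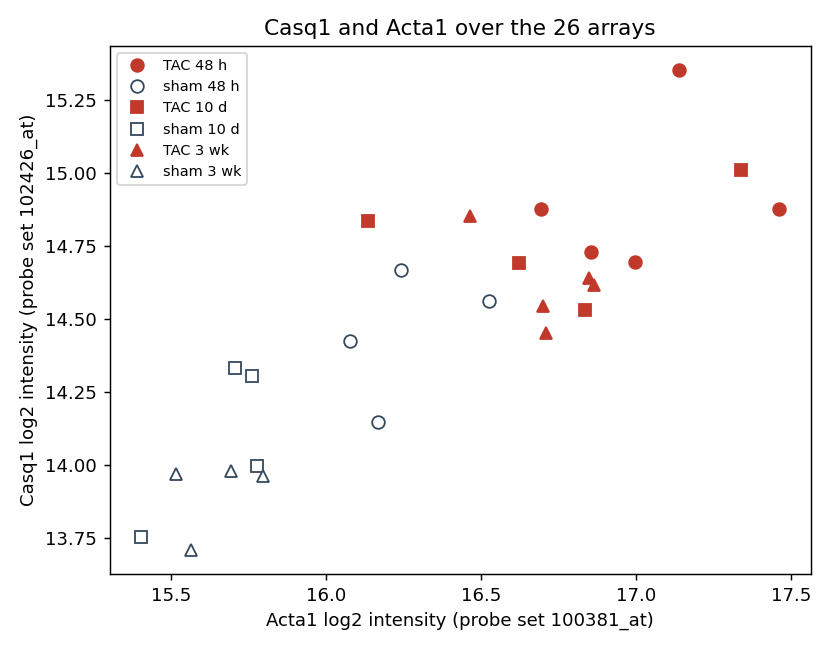
Log2 intensity of Casq1 against that of Acta1 on each of the 26 arrays; filled red symbols are TAC and open dark blue symbols sham, and circles, squares and triangles are 48 h, 10 d and 3 wk. TAC arrays lie toward the upper right at each duration, and the correlation over all arrays is r = 0.84, against 0.26 for deviations from the group means.

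Casq2, cardiac calsequestrin, was measured by probe set 93053_at and was not called at any duration. At 10 d its intensities were 2552, 3085, 3499 and 2906 in TAC arrays, against 4271, 4510.3, 3285 and 3886 in sham arrays. One TAC array, replicate 3, lay above the lowest sham array, and the change missed the threshold (log2 change -0.40, SE 0.15, adjusted p = 0.109, 95% interval -0.71 to -0.10). At 48 h the intensities were 3595, 3360.1, 3877, 2836 and 4764 in TAC arrays, against 2629.6, 3409, 3942 and 3795 in sham arrays, with overlap (log2 change 0.09, SE 0.14, adjusted p = 0.986). At 3 wk they were 4839, 4264, 4609.5, 4129.6 and 4359 in TAC arrays, against 3386, 4617, 4257 and 4367 in sham arrays. All 5 TAC arrays fell within the range of the sham arrays or just above it (log2 change 0.10, SE 0.14, adjusted p = 0.746). The TAC effect on Casq2 was lower at 10 d than at 48 h by 0.50 on the log2 scale (change of effect -0.50, unadjusted p = 0.022, adjusted p = 0.392 by limma) and higher at 3 wk than at 10 d by 0.51 (unadjusted p = 0.0201, adjusted p = 0.504), and neither difference passed.

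Atp2a2, the calcium pump SERCA2, was measured by probe set 99570_s_at, whose suffix marks probes shared by several transcripts. Its intensities at 48 h were 82668, 79669.7, 104143, 87318 and 102953 in TAC arrays, against 110942, 103635, 94024 and 75256 in sham arrays. At 10 d they were 83249.9, 61842, 72649 and 109501 in TAC arrays, against 75889, 75193, 87363 and 57179 in sham arrays, and at 3 wk 88611, 75094, 70003, 80596 and 90593 in TAC arrays, against 105208, 85254, 95780.5 and 92761 in sham arrays. TAC and sham arrays overlapped at every duration. The differences were log2 change -0.07, SE 0.15, adjusted p = 0.992 at 48 h, log2 change 0.13, SE 0.15, adjusted p = 0.687 at 10 d and log2 change -0.23, SE 0.15, adjusted p = 0.407 at 3 wk. The 95% intervals were -0.36 to 0.23, -0.18 to 0.45 and -0.53 to 0.07, so at 3 wk a fall of up to 0.53 on the log2 scale lies within the interval. No pair of neighbouring group means differed by more than the larger SD of the pair. At 10 d the sign turned on the main scan day alone (-0.02).

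At 3 wk the summed intensity of the ventricular markers was 735550 to 883743 in TAC and 905106 to 1120150 in sham arrays, with 0 of 7 called by limma and 3 at an unadjusted p under 0.05, which 19.6% of all tested probe sets reached. Their median log2 change was -0.35, against -0.01 over all tested probe sets. The genes most like Atp2a2 over the 26 arrays were Cox6a2, the heart and skeletal muscle form of a cytochrome oxidase subunit (r = 0.89, rho = 0.86), Tnni3, cardiac troponin I (r = 0.88), and Hba-a1, a haemoglobin chain (r = 0.88). For deviations from the group means these were 0.91, 0.84 and 0.87. The part of the ventricular markers in the Atp2a2 value at 3 wk was not tested.

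S100a1, the calcium sensor, had 3 probe sets, of which 1 passed the filter on dim values. This one, 95453_f_at, carries the suffix for probes that may match a family of sequences. Its intensities were 58778, 46746, 58374, 46759 and 58399.6 in TAC arrays, against 58343, 57649, 55087 and 55322 in sham arrays at 48 h and 82186, 69619.7, 75151 and 65829 in TAC arrays, against 70268, 61380.5, 75088 and 59038 in sham arrays at 10 d. At 3 wk they were 56631, 67608, 60859, 60768 and 51865 in TAC arrays, against 54996, 54061, 55298 and 54919.7 in sham arrays. Groups overlapped at each duration, and the log2 changes were -0.08 (adjusted p = 0.97), 0.14 (0.469) and 0.11 (0.556) by limma at 48 h, 10 d and 3 wk. The 4 sham arrays at 3 wk lay close together (SD 0.01 on the log2 scale), against an SD of 0.14 over the 5 TAC arrays. The other probe sets, 95454_at and 95452_i_at, read 82.3 to 749.6 and 17.4 to 426.6 over the arrays and were not tested; the second was under the floor in 17 of 26 arrays.

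Slc8a1, the sodium-calcium exchanger, was represented by probe set 99524_at. At 10 d its intensities were 16047, 16962, 15511 and 15129.7 in TAC arrays, against 19540.1, 19904, 17701 and 18509 in sham arrays. All 4 TAC arrays lay below all 4 sham arrays, but the difference did not pass (log2 change -0.25, SE 0.12, adjusted p = 0.223, 95% interval -0.49 to -0.01). At 48 h the intensities were 17985, 18654, 18426, 15397 and 20679 in TAC arrays, against 21414, 17938, 14076 and 17751 in sham arrays (log2 change 0.04, adjusted p = 0.992). At 3 wk they were 16185, 15499, 16939.6, 19819 and 18193 in TAC arrays, against 13429, 19061, 17542 and 17932 in sham arrays (log2 change 0.04, adjusted p = 0.896). The groups overlapped at these 2 durations. On the main scan day alone, the 3 wk change turned to -0.18 (adjusted p = 0.689 by limma).

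The dimmer probe set of Slc8a1, 99525_at, also had no overlap at 10 d, with intensities of 973.2, 921.9, 1028 and 789 in TAC arrays, against 1228, 1189, 1124 and 1419 in sham arrays (log2 change -0.42, SE 0.40, adjusted p = 0.604). At 48 h it read 1199.9, 835.8, 1248, 1657 and 1301 in TAC arrays, against 928.5, 1348, 188.1 and 1403 in sham arrays (log2 change 0.69, SE 0.38, adjusted p = 0.824). Sham replicate 3 lay far below the other sham arrays, and without it the 48 h change was 0.02. At 3 wk the intensities were 970.9, 1431, 1802, 1149 and 677.8 in TAC arrays, against 1398, 1028, 1146 and 1485 in sham arrays, with overlap (log2 change -0.13, adjusted p = 0.887), and on the main scan day alone the change was 0.32. The third probe set, 93168_at, read 11.7 to 265.3 and was under the floor in 23 of 26 arrays, so it was not tested.

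The plot of TAC effects with their intervals sets the 7 probe sets side by side.

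**Figure D3:**
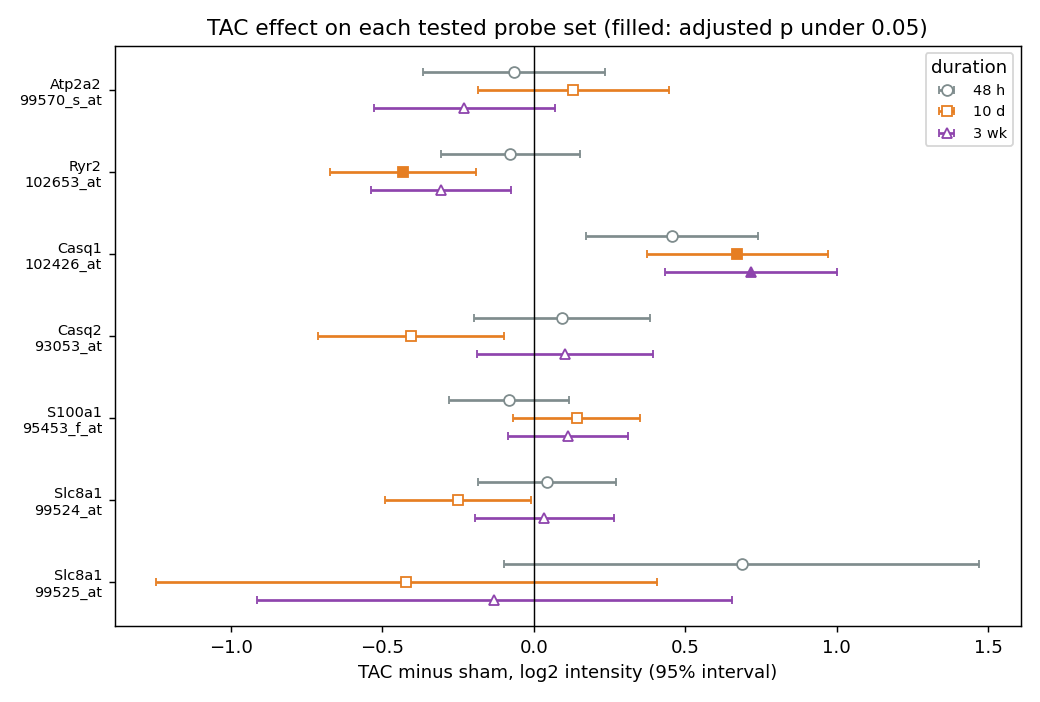
TAC minus sham in log2 intensity for each tested probe set at 48 h (circle), 10 d (square) and 3 wk (triangle), with the 95% interval from limma; filled symbols have an adjusted p under 0.05. The 3 filled symbols are Casq1 at 10 d (0.67) and 3 wk (0.72) and Ryr2 at 10 d (-0.43), and the widest intervals are those of the dimmer Slc8a1 probe set 99525_at.

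Whether an effect differed between durations was tested as a difference of the TAC effects. None of the 7 probe sets was called by limma, with adjusted p of 0.392 to 0.79 for 10 d against 48 h, 0.504 to 0.977 for 3 wk against 10 d and 0.614 to 0.991 for 3 wk against 48 h. Of all tested probe sets 0.0959%, 0.0274% and 0% were called in these tests. Unadjusted p under 0.05 was reached by Ryr2 for 10 d against 48 h (change of effect -0.35, adjusted p = 0.445 by limma) and by Casq2 as given above. For Casq1 the change of effect was 0.21 for 10 d against 48 h (95% interval -0.20 to 0.63) and 0.05 for 3 wk against 10 d (-0.37 to 0.46). The Casq1 effects at 10 d and 3 wk were thus not shown to differ from that at 48 h, where the difference itself missed the threshold.

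Over the 26 arrays the highest correlation between any pair of the 6 genes was 0.40 (Ryr2 with Slc8a1), and the lowest -0.40 (Ryr2 with Casq1). For deviations from the group means the highest was 0.44 (Ryr2 with Casq2, 0.21 over the arrays themselves) and the lowest -0.43 (Casq1 with Slc8a1, -0.24 over the arrays themselves), and Ryr2 with Casq1 read -0.38. The genes most like Ryr2 were Sdha, a subunit of succinate dehydrogenase (r = 0.88, rho = 0.84), Abcc9, the SUR2 subunit of ATP-sensitive potassium channels (r = 0.84), and Auh, a mitochondrial enzyme of leucine breakdown (r = 0.84). Those most like Casq2 were Cplx2, a complexin of vesicle release (r = 0.72), Gfap, a glial filament protein (0.70), and Gm17811 (0.69). Those most like S100a1 were Cdc34, a ubiquitin-conjugating enzyme (0.83), Rps18, a ribosomal protein (0.78), and H2-D1, a class I histocompatibility antigen (0.78), and those most like Slc8a1 were Wdr45b (0.70), Cav3, the caveolin of muscle (0.62), and Sqor, a mitochondrial enzyme of sulfide breakdown (0.61). The arrays behind these values share groups, durations and scan days. Rank correlation was lower for Rps18 (rho = 0.56) and Cav3 (rho = 0.48). For deviations from the group means, r in the order named was 0.73, 0.74 and 0.64 for Ryr2 and 0.57, 0.68 and 0.40 for Casq2. It was 0.56, 0.65 and 0.56 for S100a1 and 0.70, 0.64 and 0.60 for Slc8a1.

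A wider list of 61 calcium genes was counted by role. Of these 35 had a probe set and 26 were tested, each by its brightest tested probe set. At 48 h none was called by limma, at 10 d 0 rose and 1 fell, and at 3 wk 1 rose and 1 fell, where the called share of all tested probe sets was 0.0548%, 4.87% and 4.73%. At an unadjusted p under 0.05 there were 4, 9 and 8 of the 26, against 6.17%, 21% and 19.6% of all tested probe sets. Their median log2 change was -0.02, 0.00 and 0.00 at 48 h, 10 d and 3 wk, close to the -0.01, -0.02 and -0.01 of all tested probe sets. By role the median ran from -0.32 (entry and receptors) to 0.27 (pumps and exchangers) at 10 d. At 3 wk it ran from -0.29 to 0.15 for the same roles. Of the 5 tested entry and receptor genes, 4 at 10 d and 3 at 3 wk had an unadjusted p under 0.05 by limma.

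Of the 6 tested pump regulators, Prkaca fell at 10 d. It encodes the catalytic subunit of protein kinase A, which phosphorylates phospholamban and Ryr2. Its intensities at 10 d were 19388, 19982, 19812 and 19201 in TAC arrays, against 28166, 23919, 24729 and 25164 in sham arrays. TAC and sham arrays did not overlap (log2 change -0.38, SE 0.11, adjusted p = 0.0488 by limma). The call was lost in each of the 8 fits without 1 array (adjusted p = 0.0632 to 0.134 by limma) and on the main scan day alone (adjusted p = 0.0595). At 48 h its log2 change was 0.04 and at 3 wk -0.07.

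Of the 6 tested release channels and partners, Sri rose at 3 wk. It encodes sorcin, a calcium-binding protein that associates with Ryr2. Its intensities at 3 wk were 4503, 6278, 4427, 5806 and 4274 in TAC arrays, against 1642, 2950.5, 3936 and 3861 in sham arrays. Each TAC array lay above each sham array, and Sri rose 1.705-fold (log2 change 0.77, SE 0.20, adjusted p = 0.0223 by limma). Sham replicate 1 was the lowest array, and without it the change was 0.49 (adjusted p = 0.105 by limma). The call was also lost without TAC replicate 2 (adjusted p = 0.0592) or TAC replicate 4 (adjusted p = 0.0739), and on the main scan day alone the change was 0.55 (adjusted p = 0.276). At 10 d the log2 change was 0.55 (adjusted p = 0.118).

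Of the 5 tested genes of calcium entry and its receptors, Cacnb2 fell at 3 wk. It encodes a beta subunit of the L-type calcium channel. Its intensities at 3 wk were 5527, 4745, 3542, 3918 and 4203 in TAC arrays, against 5904, 5758, 6822 and 7889 in sham arrays. TAC arrays lay below all sham arrays, and Cacnb2 fell 1.509-fold (log2 change -0.59, SE 0.12, adjusted p = 0.00428 by limma). The ventricular marker sums at 3 wk, given with Atp2a2, also lay lower in every TAC array than in every sham array, and their part in the Cacnb2 result was not tested. The call was kept in all 9 fits without 1 array but not on the main scan day alone (-0.47, adjusted p = 0.21). At 10 d the log2 change was -0.32 (adjusted p = 0.133) and at 48 h -0.21 (adjusted p = 0.824).

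The other 2 roles held no call. Of the pumps and exchangers 2 were tested, with Atp2a3, an endoplasmic reticulum pump of non-muscle cells, at -0.03, 0.06 and 0.45 (log2 change at 48 h, 10 d and 3 wk; adjusted p = 0.0803 at 3 wk by limma), and Atp2a1, the pump of fast skeletal muscle, at -0.13, 0.49 and -0.15. Of the lumenal buffers and membrane proteins 7 were tested. Hrc, the histidine-rich calcium-binding protein of the sarcoplasmic reticulum, read 0.06, -0.13 and -0.38, and Hspa5, a chaperone of the endoplasmic reticulum, 0.29, -0.20 and -0.40 (adjusted p = 0.0866 at 3 wk by limma). Calu read -0.01, 0.37 and 0.45 (adjusted p = 0.0507 at 3 wk by limma), and Pdia3 0.52, 0.59 and -0.05 (0.0934 at 10 d). TAC and sham arrays did not overlap for Hrc (lower) and Calu (higher) at 3 wk and for Pdia3 (higher) at 10 d.

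**Figure D4:**
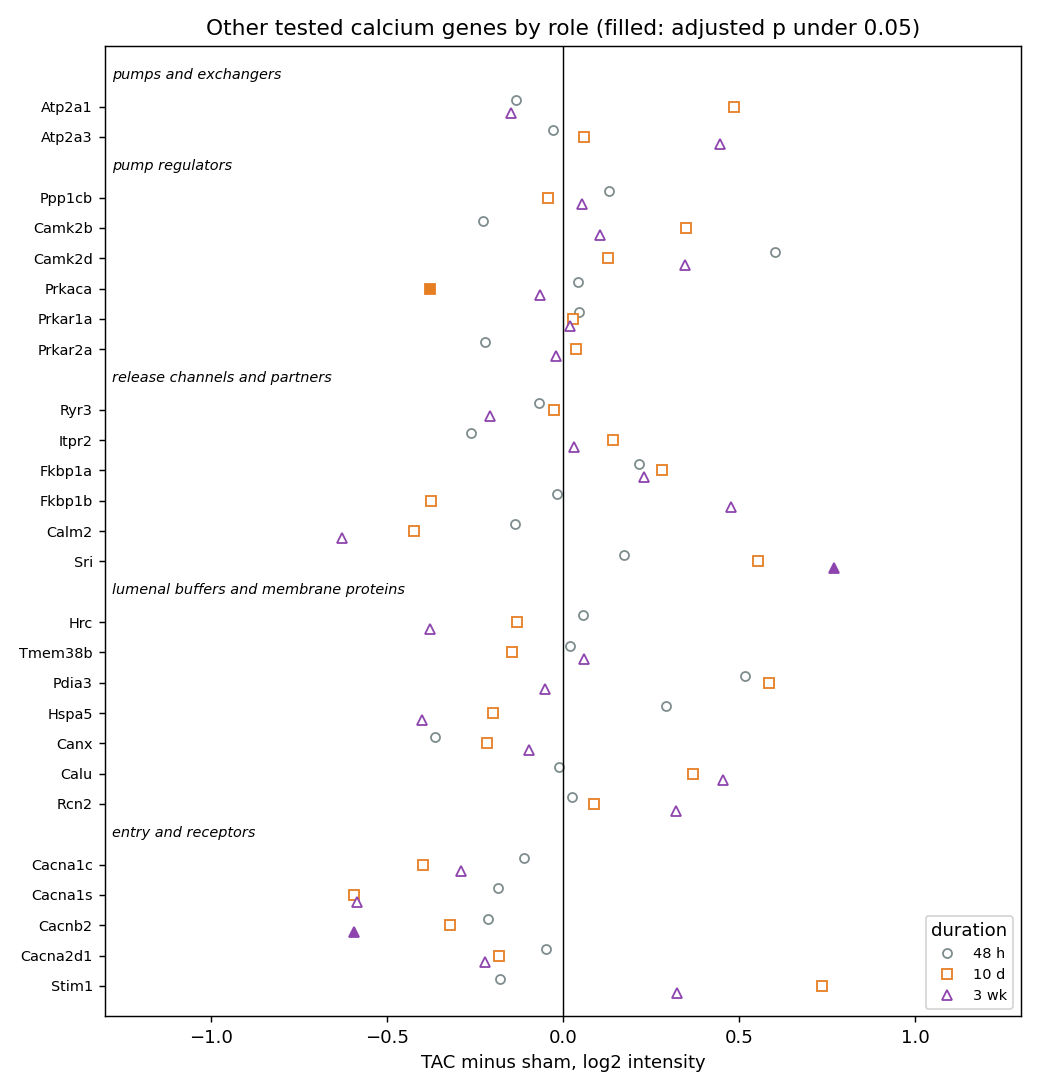
TAC minus sham in log2 intensity for the 26 tested genes of the wider calcium list, grouped by role, at 48 h (circle), 10 d (square) and 3 wk (triangle); filled symbols have an adjusted p under 0.05 by limma. The 3 filled symbols are Prkaca at 10 d (-0.38), Sri at 3 wk (0.77) and Cacnb2 at 3 wk (-0.59).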

How the data were processed

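Total RNA of 26 mouse heart arrays was measured on the MG_U74Av2 array, per the array description files. The authors deposited 1 intensity per probe set and array on a linear scale; the summarising method is not stated in the labels or headers. The mean after trimming 2% at each end was 2501.81 to 2502.2 on all arrays, so the deposited intensities seem to have been scaled to one level. No further scaling was applied. The 66 control probe sets were left out, intensities under a floor of 167.9 (the 20th percentile) were set to it, and log2 was taken. Group means of all 26 arrays were fitted with limma 3.58.1 in R 4.3.3 with an intensity trend. P-values were adjusted by Benjamini-Hochberg over 7297 probe sets. Of all probe sets, 10833 name 1 gene, 396 several and 1193 none. A gene was represented by its tested probe set of highest mean. Which probes make up a probe set, and so cross-hybridisation, was not analysed here. The fit was tested on simulated data. The number of arrays limits the precision.

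The members and gene lists were chosen with earlier results of these data known. The text names every member, the genes called in each calcium role or otherwise the 2 of highest level, and the 3 genes most correlated with each member. Acta1, the one skeletal marker called, the other skeletal markers, Col1a2, Calu and Pdia3 were named after their values were seen. Alternatives covered normalization, floor, filter, trend, groups in the fit, replicate number, scan day and each array left out.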

Additional observations from a re-analysis of the deposited data

Results flagged for a closer look

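In 42 groups of 4 or 5 arrays, 7 probe sets in 6 groups, the highest and lowest array was compared with the rest by Dixon's ratio, the gap to the nearest array over the range of the group, against its critical value for the group size. Chance passes about 5% of groups, and 3 passed.

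Casq1 in TAC replicate 4 at 48 h, at 41902, lay far above the other 4 TAC arrays (ratio 0.722). Without it the Casq1 change at 48 h was 0.34 (adjusted p = 0.758 by limma), against 0.46 with it. The same array had the highest summed atrial markers of its group, 325841 against 10167 to 35571 in the other 4 TAC arrays, and the highest summed fibroblast (151987), endothelial (57342) and smooth muscle markers (34669). Their part in its Casq1 value was not tested.

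Casq1 in sham replicate 1 at 3 wk, at 13392, lay below the other 3 sham arrays (ratio 0.933). Without it the Casq1 change at 3 wk was 0.65 (adjusted p = 0.0135 by limma).

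Ryr2 in sham replicate 4 at 48 h, at 17044, lay below the other 3 sham arrays (ratio 0.878). Without it the Ryr2 change at 48 h was -0.15 (adjusted p = 0.973 by limma).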

How the results depend on the processing

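The 3 counts of called members, 0 at 48 h, 2 at 10 d and 1 at 3 wk, were recomputed under 11 alternatives. The count at 10 d was 1, Casq1, with each array scaled to a common median (chosen after seeing the data), with no filter, with no intensity trend, with scan day as a block, on the main scan day alone and with replicate number as a block. At 3 wk it was 0 with scan day as a block and on the main scan day alone. Without 1 array the counts ran 0 to 0, 1 to 2 and 1 to 2, the 2 at 3 wk adding Ryr2 without TAC replicate 1 (adjusted p = 0.0483 by limma). In the tests between durations 0 members were called under every alternative. The sham test called 2 members with cyclic loess, 5 with a common median and 0 to 2 without 1 sham array, alternatives chosen after seeing the data.

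Of 264 values (24 changes of named probe sets, TAC against sham, under 11 alternatives), 233 kept direction and side of the threshold, 22 lost the call and 9 turned sign. Scan day as a block and the main scan day alone take each TAC effect from the same arrays. They are thus not separate checks, though both are counted here. The turned values were, with scan day as a block or on the main scan day alone, Atp2a2 at 10 d (-0.0203) and Slc8a1 at 3 wk (-0.18, and 0.32 for 99525_at). With the replicate block they were -0.0034 for Casq2 and -0.003 for Slc8a1 at 48 h and 0.0589 for 99525_at at 3 wk. Without 1 array, the ranges that crossed zero at 48 h were -0.18 to 0.0096 for Atp2a2, -0.0296 to 0.18 for Casq2 and -0.0634 to 0.14 for Slc8a1. At 10 d Atp2a2 ran -0.0203 to 0.25, and at 3 wk Slc8a1 ran -0.0738 to 0.0946 and 99525_at -0.29 to 0.0589. Differences in the 3′ to 5′ log2 ratio, TAC minus sham, ran -0.0483 to 0.0114 at 48 h and -0.0251 to 0.0506 at 10 d for Gapdh, and -0.0018 to 0.23, -0.11 to 0.17 and -0.13 to 0.0498 for Actb at 48 h, 10 d and 3 wk. The cause of these changes was not tested.

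Samples share replicate numbers, but no pair deviated together (0 of 12 pairs with a correlation over 0.1, range -0.13 to 0.03). The labels do not say whether the numbers pair the arrays, and a low correlation cannot exclude it. With the replicate block, which leaves TAC replicate 5 at 48 h and 3 wk without a partner, Ryr2 at 10 d had adjusted p = 0.0598, Prkaca 0.121, Sri 0.0544 and Cacnb2 0.0535. Using only the groups compared, Sri and Cacnb2 were not called at 3 wk either (adjusted p = 0.114 and 0.0614). Dim probe sets limit the reading of S100a1 and Slc8a1 to 1 and 2 probe sets.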
